A study of Mus musculus with 12 samples.

Results

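Tissue macrophages that carry complement C1q were described across 12 libraries of dissociated mouse mammary gland cells. The cells were chosen by measured counts: a cell was taken as a macrophage when it held at least 5 unique molecular identifiers (UMIs, 1 per captured mRNA molecule) of C1qa, C1qb and C1qc together and no UMI of the T cell genes Cd3d, Cd3e and Cd3g, the B cell gene Cd79a, the fibroblast gene Pdgfra or the epithelial gene Epcam. Of 58620 barcodes, 46257 passed limits of 500 genes and 1000 UMIs from below and 5% mitochondrial UMIs from above, and 951 of these (2.06%) were macrophages. A further 488 cells reached 5 C1q UMIs and were left out for a UMI of an excluded gene, of Pdgfra in 334 of them. The threshold cut through a sparse range: 32 macrophages held 5 or 6 C1q UMIs, 47 cells held 3 or 4, and the median macrophage held 35 to 118 depending on the library.

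C1q is the recognition molecule of the classical complement pathway. It is built from 3 related chains, the products of C1qa, C1qb and C1qc, and is made mainly by tissue macrophages rather than by the liver. Besides starting the complement cascade on antibody and on dying cells, it marks cells for uptake. Macrophages of the mammary gland sit along the ducts and in the fatty stroma, clear cells during remodelling of the epithelium and present antigen. Those with LYVE1, FOLR2 and CD163 are commonly described as a long-lived stromal and perivascular type, and those with high MHC class II and CCR2 as closer to blood monocytes.

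The glands came from female C57BL/6J mice at 43 weeks, from the 4th mammary glands after removal of the lymph nodes, by collagenase digestion with depletion of dead cells, red cell lysis and exclusion of larger cells. Each of the 12 groups was 1 library, and the number of animals behind a library was not given in the sources used here. Intact mice received no VCD. All 11 other groups received 4-vinylcyclohexene diepoxide (VCD) at 160 mg/kg per day for 15 days, a chemical that depletes ovarian follicles and so models menopause with the ovaries left in place. VCD_Vehicle received the sesame oil vehicle, VCD_E2 received 17β-estradiol (E2) at 1 µg per day for 1 week, VCD_E2_P4 received E2 with progesterone (P4) at 1 mg per day, and VCD_E2_ICI received E2 and, once, 5 mg of ICI, a drug that blocks and degrades estrogen receptors. VCD_Low_PBDE, VCD_Low_E2 and VCD_Low_E2_P4 were fed polybrominated diphenyl ethers (PBDEs, flame retardants) at 0.05 mg/kg per day of PBDE-47, 0.0028 of PBDE-100 and 0.0063 of PBDE-153 for 20 weeks. This diet began 100 days after VCD. VCD_High_PBDE, VCD_High_PBDE_E2 and VCD_High_PBDE_E2_P4 were fed 1, 0.056 and 0.126 mg/kg per day of the same compounds for 1 week, so dose and duration cannot be told apart. VCD_Low_E2 and VCD_High_PBDE_E2 also received E2 at 1 µg per day for 1 week. VCD_Low_E2_P4 and VCD_High_PBDE_E2_P4 received that E2 with P4 at 1 mg per day. VCD_Vehicle_NormEnv was a second vehicle library, and the sources used here do not explain the added term. All groups without PBDE ate matched food with the DMSO solvent. Intact, VCD_Vehicle, VCD_E2, VCD_E2_P4 and VCD_Low_PBDE share 1 suffix in their library names and the other 7 share another, with no meaning given, and every high PBDE library carries the second suffix.

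Total depth ran from 41737881 to 109224969 UMIs a library, and the macrophages summed to 435398 to 1765088 UMIs. No barcode of a macrophage occurred as a macrophage in another library. VCD_Low_E2_P4 stood apart: its macrophages had a median of 5399 UMIs against 9011 to 14923.5 elsewhere, and their fibroblast marker level was 11.8% of that in the fibroblasts of the library, against 1.04% to 3.34% in the other 11. In the tests below that library was left out in turn with the others. Levels are CPM, the UMIs of a gene in the summed macrophages of a library per 1000000 of all their UMIs. Because the 3′ chemistry counts 1 tag per mRNA, CPM is not divided by gene length.

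The 3 C1q genes lie side by side on the minus strand of chromosome 4 of GRCm38, C1qb at 136880129 to 136886187, C1qc at 136889804 to 136893065 and C1qa at 136895917 to 136898803. The windows of 250 bases before the RefSeq start (GRCm38.p6) of C1qc and C1qb are shown because both genes define the cells. Capitals mark AGGAAGT, a core bound by PU.1, the factor that specifies macrophages, here on the opposite strand as ACTTCCT. It lies 195 bases before the RefSeq start of C1qc and 53 before that of C1qb. The span of C1qc given above, from GENCODE, reaches 136893065, which is inside its window, so the 2 annotations place the C1qc start differently.
C1qc, chr4:136892915-136893164, minus strand: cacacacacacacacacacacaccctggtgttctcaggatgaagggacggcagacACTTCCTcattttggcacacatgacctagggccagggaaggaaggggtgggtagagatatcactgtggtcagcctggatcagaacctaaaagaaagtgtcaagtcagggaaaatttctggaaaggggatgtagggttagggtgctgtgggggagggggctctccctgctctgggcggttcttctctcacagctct
C1qb, chr4:136886201-136886450, minus strand: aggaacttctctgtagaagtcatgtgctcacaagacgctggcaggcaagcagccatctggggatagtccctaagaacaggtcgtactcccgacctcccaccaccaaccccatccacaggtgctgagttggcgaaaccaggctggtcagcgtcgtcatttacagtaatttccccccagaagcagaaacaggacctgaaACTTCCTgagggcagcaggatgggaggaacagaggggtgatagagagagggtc
Windows of 3 genes that were higher with E2 or E2_P4 follow, searched on both strands for a pair of GAAA repeats with any 2 bases between them, the shape of an interferon-stimulated element. Capitals mark it in Bst2 (2 overlapping matches, 130 and 124 bases before the start) and in H2-T22 (on the opposite strand, 191 bases before), and Lgals3bp held no match.
Bst2, chr8:71537473-71537722, minus strand: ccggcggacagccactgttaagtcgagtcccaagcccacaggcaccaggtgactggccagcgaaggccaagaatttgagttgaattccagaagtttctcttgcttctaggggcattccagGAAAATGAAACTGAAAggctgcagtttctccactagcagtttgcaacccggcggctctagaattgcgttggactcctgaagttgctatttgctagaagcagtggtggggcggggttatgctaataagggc
H2-T22, chr17:36042743-36042992, minus strand: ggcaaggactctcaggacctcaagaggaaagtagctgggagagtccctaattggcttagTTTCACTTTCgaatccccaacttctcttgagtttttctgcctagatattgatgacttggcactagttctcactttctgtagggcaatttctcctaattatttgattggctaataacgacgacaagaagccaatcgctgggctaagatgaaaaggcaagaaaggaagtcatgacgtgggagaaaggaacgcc
Lgals3bp, chr11:118401960-118402209, minus strand: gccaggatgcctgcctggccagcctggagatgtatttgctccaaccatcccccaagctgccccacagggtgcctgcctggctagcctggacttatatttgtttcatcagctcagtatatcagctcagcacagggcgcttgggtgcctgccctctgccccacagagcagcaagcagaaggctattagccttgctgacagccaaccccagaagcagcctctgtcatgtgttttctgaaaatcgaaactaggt
Of 32851 RefSeq promoters of this length, 2.98% held the GAAA pair and 7.69% held AGGAAGT. Among the 6428 genes tested in the macrophages that had a promoter, the shares were 3.58% and 9.43%. Of the genes that passed as higher with E2 or E2_P4, 5 had a promoter, and the GAAA pair occurred in 2, Bst2 and H2-T22. Of the 36 interferon-induced genes listed for this work, 27 had a promoter and 13 of these held the GAAA pair, among them Bst2, Isg15, Ifit1 and Stat2. AGGAAGT occurred in 6 of the 14 promoters of the resident macrophage list, those of F13a1, Fcna, Folr2, Mrc1, Pf4 and Selenop. In the macrophage identity list it occurred in 2 of 12, those of Fcgr1 and Lyz2. These are matches of letters in a window and not binding sites.

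The cells had the profile of macrophages. The most abundant mRNAs other than ribosomal and mitochondrial ones included Retnla (a secreted protein of alternatively activated macrophages, 20276 CPM), Cd74 (the MHC class II invariant chain, 19127 CPM), Lyz2 (lysozyme, 9510 CPM), Apoe (a lipid carrier, 9093 CPM) and H2-Aa (an MHC class II chain, 7391 CPM). The genes with the largest ratio to all remaining cells, beside the C1q genes used to choose the cells, were the lectin Cd209f (log2 ratio 7.08), the folate receptor gene Folr2 (6.90), the carbonyl reductase gene Cbr2 (6.87) and the platelet factor gene Pf4 (6.80). C1qa stood at 3521 CPM, C1qb at 3999 and C1qc at 2404, and none of them passed 1.54 CPM in Pdgfra-positive fibroblasts or 6.78 in the other immune cells. These values describe the selection and were not tested.

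C1qa ran from 2975 CPM in VCD_Low_PBDE to 4053 in VCD_High_PBDE_E2, C1qb from 3738 to 4545, again in these 2 libraries, and C1qc from 2076 in VCD_Low_PBDE to 3006 in VCD_Vehicle_NormEnv. These levels are those of cells chosen on these genes and describe the choice. Among the other complement genes, properdin (Cfp, which stabilizes the alternative pathway convertase) stood at 788 to 1146 CPM, the C3a receptor C3ar1 at 303 to 552, the C5a receptor C5ar1 at 280 to 635 and C4b at 281 to 720. The classical proteases C1ra and C1s1 were at 25.8 and 32.6 CPM over all macrophages against 589 and 801 CPM in fibroblasts. C3 (92.1 against 1927 CPM) and the C1 inhibitor Serping1 (54.6 against 1852 CPM) were likewise higher in fibroblasts. Both comparison classes were defined by fewer than 5 C1q UMIs, so the absence of C1q from them was set by that definition.

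Whole profiles were similar between libraries. Across 2782 genes at 50 CPM or more, Pearson's r of log2 levels between 2 libraries lay between 0.910 and 0.976, a description over genes that share the same libraries and depth. Markers of several other cell types were low, while those of fibroblasts, erythrocytes and Schwann cells were not low in every library. The summed markers of endothelial cells reached at most 9.0 CPM in any library, those of pericytes and smooth muscle 15.4 CPM and those of mast cells 20.3 CPM. Dendritic cell markers summed to 47.9 to 180 CPM and monocyte markers to 344 to 1069 CPM. Neutrophil markers lay between 80.1 and 319 CPM and Schwann cell markers between 376 and 852 CPM. The same Schwann cell markers summed to 256 to 335 CPM in fibroblasts and 75.6 to 120 CPM in other immune cells. Fibroblast markers summed to 345 to 5436 CPM, highest in VCD_Low_E2_P4. Erythrocyte markers summed to 6.08 to 2166 CPM, highest in VCD_Low_E2. A UMI of Flt3, Zbtb46, Xcr1, Clec9a, Cd209a or Ccr7, genes of dendritic cells, was found in 305 of the 951 macrophages.

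To compare shares of cells at equal depth, each cell was thinned to 2000 UMIs, which kept 860 of the 951 macrophages, from 36 of 36 in Intact to 117 of 144 in VCD_Low_E2_P4. A UMI of the mannose receptor Mrc1 was found in 74.2% of them, of the transglutaminase F13a1 in 68.3%, of Folr2 in 58.1% and of the scavenger receptor Cd163 in 34.8%. In fibroblasts, which should lack these genes, the shares were 0.141%, 0.147%, 0.0408% and 0.0188%, at the same thinned depth and from original medians of 14490 to 22755 UMIs against 5399 to 14923.5 in macrophages. The MHC class II gene H2-Ab1 was found in 91.3% of macrophages, the monocyte chemokine receptor gene Ccr2 in 39.4%, the lipid sensor gene Trem2 in 14.3% and the proliferation gene Mki67 in 4.07%. Timd4, a marker of long-lived resident macrophages elsewhere, was found in 0.698% and Cx3cr1, a marker of ductal macrophages, in 2.79%. These 2 genes were therefore rare here, at a depth of 2000 UMIs a cell.

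Lyve1, a hyaluronan receptor of perivascular macrophages, divided the cells. After thinning it was found in 22.1% of macrophages against 0.0847% of fibroblasts, and per library in 10.3% (VCD_Low_E2_P4) to 36.4% (VCD_High_PBDE) of cells, or 20.1% to 53.2% before thinning. In all 12 libraries the cells with a Lyve1 UMI had lower summed MHC class II levels than those without, by a log2 ratio of -1.49 to -0.18 (median -1.14). In VCD_Low_E2, for example, the MHC class II list summed to 12495 CPM in 26 cells with Lyve1 and to 30005 CPM in 60 without. The other genes of the resident list were higher in the Lyve1 cells in 12 of 12 libraries (log2 ratio 0.74 to 1.70), with Folr2 at a median of 1.78 and F13a1 at 1.55. Lyz2 and Ccr2 were lower in 12 of 12 (medians -0.33 and -0.64). Interferon-induced genes were also higher in the Lyve1 cells of 12 of 12 libraries, at 0.05 to 1.24 (median 0.49). The cells with and without Lyve1 had median depths of 8402 to 16950 and 7093 to 16091 UMIs. The libraries supply the spread here, and no test was run because the lists were read in the cells that were divided.

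**Figure D1:**
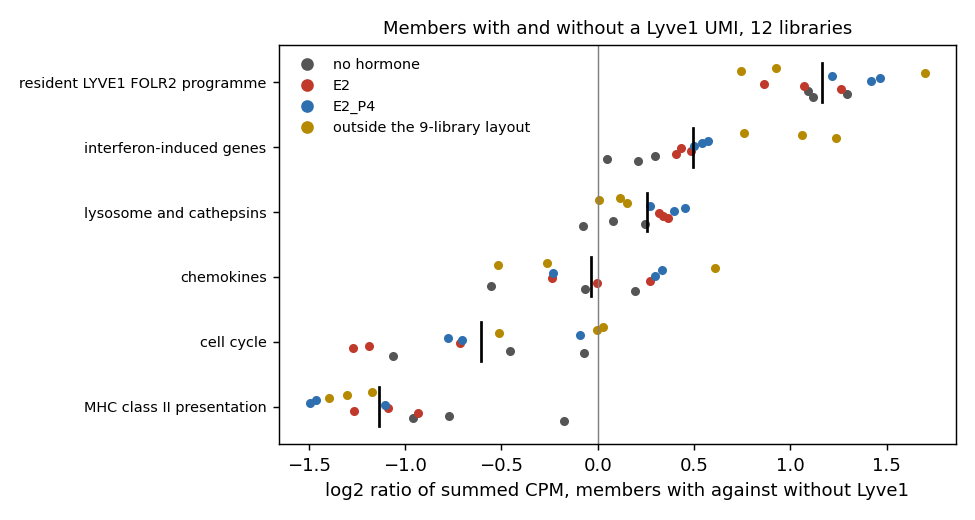
Log2 ratio of summed CPM between macrophages with and without a Lyve1 UMI (after thinning to 2000 UMIs), 1 point a library, coloured by hormone group, with a bar at the median of 12 libraries. The MHC class II points all lie below 0 and the resident and interferon points all lie above 0.

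Cells with Ccr2 formed a pattern that ran the other way. Their resident list was lower in 12 of 12 libraries (median log2 ratio -0.62), Apoe was lower in 12 of 12 (-0.55) and Lyz2 higher in 12 of 12 (0.26), while MHC class II was higher in 10 of 12 (0.32). Cells with Trem2 showed no uniform direction, with MHC class II lower in 10 of 12 libraries and the resident list higher in 5 and lower in 7. They were few, however: 1 in Intact, 3 in VCD_E2_ICI, 4 in VCD_Vehicle, 5 in VCD_High_PBDE and at most 25, in VCD_E2_P4. The direction in such a library rests on few cells.

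Macrophages took a larger share of all cells with E2 or E2_P4. Without hormone the share of kept cells was 1.26% in VCD_Vehicle, 1.62% in VCD_Low_PBDE and 1.55% in VCD_High_PBDE. With E2 it was 2.81%, 2.20% and 2.73% at no, low and high PBDE, and with E2_P4 it was 2.86%, 1.90% and 5.01%. The 6 hormone libraries all lay above the 3 without hormone. The odds of a cell being a macrophage were 1.92 times as high, in 3 of 3 PBDE levels, with p = 0.0370 in a two-sided exact permutation test of hormone labels within PBDE levels, the smallest p that its 27 arrangements allow. Leaving out any 1 library kept the odds ratio between 1.71 and 2.37 with exact p of 0.0556 to 0.222, over 9 or 18 arrangements. Not all of the rise comes from the fewer arrangements. Without VCD_Vehicle exact p was 0.222, while 9 arrangements gave 0.111 without VCD_Low_PBDE. Without VCD_E2 or VCD_E2_P4 it was 0.111, while 18 arrangements gave 0.0556 without VCD_Low_E2. Taken as a share of cells with a Ptprc UMI or in the class, the macrophages were 7.88%, 8.67% and 11.8% without hormone and 7.37% to 24.1% with it, ranges that overlapped, with an odds ratio of 1.39 and exact permutation p = 0.148. Intact held 1.04%, VCD_Vehicle_NormEnv 1.40% and VCD_E2_ICI 1.80% macrophages among kept cells. The dissociation excluded larger cells, and how it bears on these shares was not tested.

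**Figure D2:**
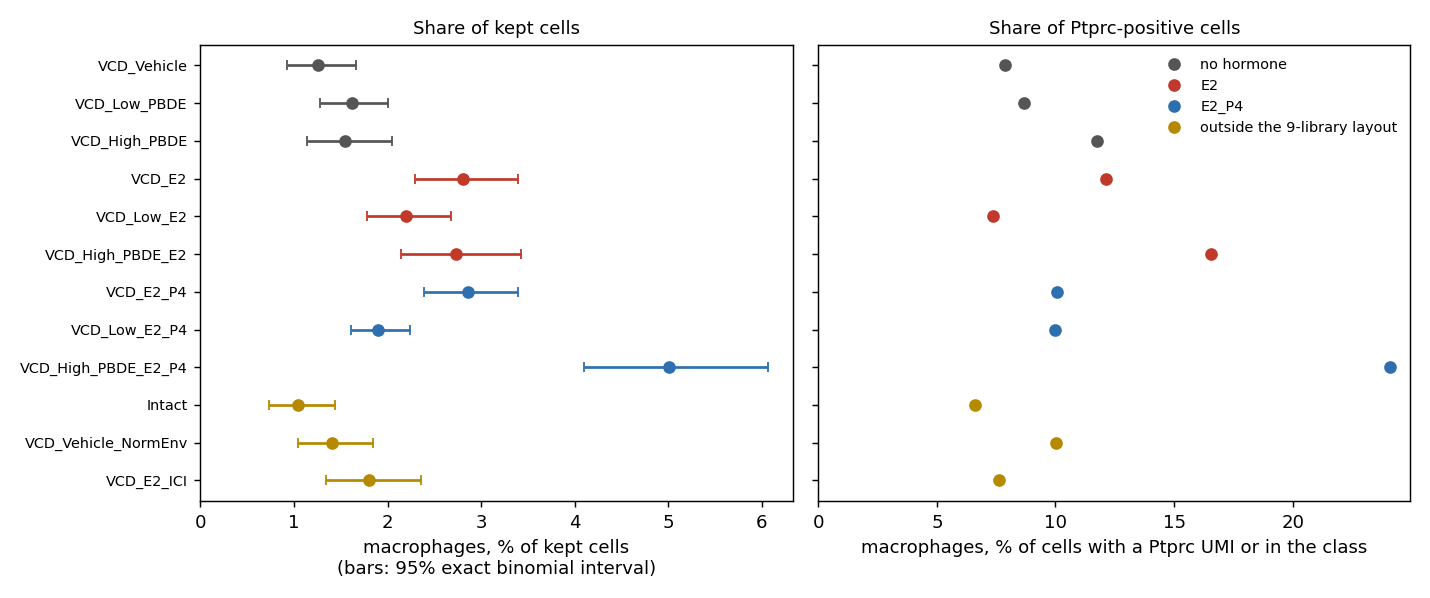
Macrophages as a percentage of kept cells (left, with 95% exact binomial intervals that cover counting error only) and of cells with a Ptprc UMI or in the class (right), 1 point a library. The 6 libraries with E2 or E2_P4 lie above the 3 without hormone on the left, at 1.90% to 5.01% against 1.26% to 1.62%, and overlap them on the right.

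The other contrasts of the share did not pass. E2_P4 against E2 gave an odds ratio of 1.18 (exact permutation p = 0.75), low PBDE against none 0.871 (exact p = 0.75) and high PBDE against none 1.29 (exact p = 0.50), where 8 arrangements allow no p below 0.25. Among cells with a Ptprc UMI or in the class the odds ratio for high PBDE was 1.85, higher in 3 of 3 hormone levels, at that smallest exact p of 0.25. The 5.01% in VCD_High_PBDE_E2_P4 was the highest share of the 12 libraries, with an exact binomial interval of 4.09% to 6.06%.

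The expression of genes with hormone was tested on sums per library over the 9 libraries, with additive terms for hormone and PBDE (edgeR quasi-likelihood test, Benjamini-Hochberg adjustment over 8271 genes, threshold 0.05), so that the spread is the departure from additive effects. Whether a hormone effect itself depends on PBDE was not tested. With E2 or E2_P4, 13 genes passed, 8 higher and 5 lower, or 0.157% of those tested, and 810 genes (9.79%) had an unadjusted p under 0.05. Of the 10 that the naming rule took, 6 were higher: Ifi27l2a and Bst2, which are on the interferon-induced list, Lgals3bp, H2-T22, Ifi30 and the hemoglobin gene Hba-a2, whose counts came almost wholly from single cells and are given with the E2_P4 comparison. Without hormone, the hemoglobin genes together gave 5, 17 and 12 UMIs at no, low and high PBDE. Hba-a2 could thus meet the count filter of 10 UMIs in 3 libraries only with the hormone libraries. Its call is therefore not read as a difference.

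Ifi27l2a, a small interferon-induced mitochondrial protein gene on chromosome 12, was at 1704, 1068 and 939 CPM without hormone at no, low and high PBDE. It was at 2877, 3431 and 2139 CPM with E2 and at 2787, 2577 and 2677 CPM with E2_P4. All 6 hormone libraries were above all 3 others, and the log2 fold change was 1.15 ± 0.155 (SE; edgeR adjusted p = 0.0135). Within the first suffix the log2 difference was 1.03, from 2 libraries without hormone and 2 with it. Within the second it was 1.49, from 1 library without hormone, VCD_High_PBDE, and 4 with it. Neither difference was balanced for PBDE.

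Bst2 encodes tetherin, which holds budding virus particles at the cell surface, and lies at 71534255 to 71537456 on chromosome 8. It was at 340, 197 and 198 CPM without hormone, at 597, 654 and 406 CPM with E2 and at 564, 455 and 619 CPM with E2_P4. The groups did not overlap, with a log2 fold change of 1.17 ± 0.190 (edgeR adjusted p = 0.0495). Lgals3bp, a secreted galectin-binding glycoprotein, was at 98.3 to 153 CPM without hormone and at 256 to 419 CPM with it, again with no overlap, a log2 fold change of 1.33 ± 0.204 (edgeR adjusted p = 0.0362).

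H2-T22, a nonclassical MHC class I molecule seen by γδ T cells, was at 60.7, 45.2 and 29.9 CPM without hormone and at 57.1 to 134 CPM with it. The libraries VCD_Vehicle (60.7) and VCD_High_PBDE_E2 (57.1) overlapped, and the log2 fold change was 1.20 ± 0.206 (edgeR adjusted p = 0.0362). Reads of H2-T22 can be shared with its near-identical neighbours in the class I cluster. Ifi30, the lysosomal thiol reductase that unfolds antigens, was at 350, 245 and 239 CPM without hormone and at 453 to 561 CPM with it. These groups did not overlap, with a log2 fold change of 0.85 ± 0.136 (edgeR adjusted p = 0.0224).

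4 genes were lower. Cd209a, a lectin also listed here as a dendritic cell marker, was at 101, 73.4 and 119 CPM without hormone and at 34.4 to 86.5 CPM with it (log2 fold change -0.88, edgeR adjusted p = 0.0495), and its groups overlapped. It passed in 2 of the 9 fits that left out 1 library, and without cells with at least 5 collagen UMIs and without VCD_Vehicle its value was -0.34 (edgeR adjusted p = 0.916). The dendritic cell markers together summed to 83.6 to 142 CPM without hormone and 47.9 to 99.2 CPM with it, and their part in the Cd209a difference was not tested. Hspa1b, an inducible HSP70 chaperone that can share reads with its close copy Hspa1a, was at 1068, 2200 and 2644 CPM without hormone, at 891, 1430 and 1246 CPM with E2 and at 699, 1074 and 1280 CPM with E2_P4. It was lower at each PBDE level although the groups overlapped (log2 fold change -0.81, edgeR adjusted p = 0.0135). Lyz1, a lysozyme gene with a close copy in Lyz2 that can share its reads, was at 799 to 1194 CPM without hormone and 467 to 731 CPM with it (-0.81, edgeR adjusted p = 0.0138). Its value was -0.51 with a threshold of 10 C1q UMIs and -0.40 without collagen cells, its sign turned to 0.41 when the 5% largest macrophages were left out, and it was counted in 199 of the 951 cells. The mitochondrial gene mt-Nd3, a complex I subunit, was at 547 to 596 CPM without hormone and 320 to 456 CPM with it (-0.66, edgeR adjusted p = 0.0390). The median share of mitochondrial UMIs per macrophage moved the same way, from 3.28%, 3.44% and 3.87% without hormone to 2.57% to 3.17% with it and no overlap, and its part in the mt-Nd3 difference was not tested.

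**Figure D3:**
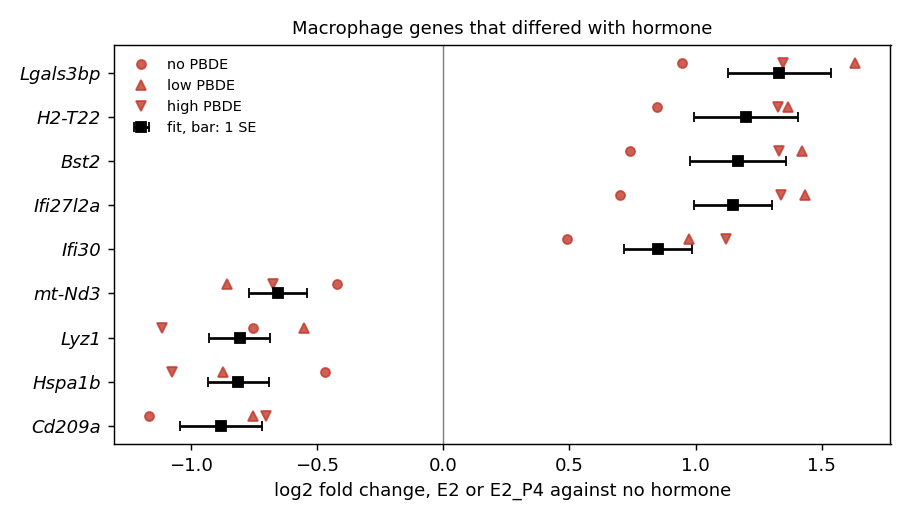
Log2 fold change of the named macrophage genes that passed the test for E2 or E2_P4 against no hormone, without Hba-a2. Red points give the difference at no, low and high PBDE, and the black square with bars gives the fitted value and 1 SE. The 5 upper genes lie above 0 and the 4 lower genes below it, and agreement of the 3 PBDE levels in sign was a condition for naming a gene.

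These calls depended on single libraries. Without VCD_Low_PBDE no gene passed, and without VCD_High_PBDE 1 gene passed, and each is 1 of only 3 libraries without hormone. With the name suffix as a term no gene passed and Ifi27l2a had a log2 fold change of 1.01 (edgeR adjusted p = 0.110). With VCD_Vehicle_NormEnv added as a 4th library without hormone 29 genes passed, among them these 5 higher genes, and without VCD_Low_E2_P4 17 passed. Without VCD_E2 the count was 8, without VCD_E2_P4 22, without VCD_Low_E2 28, without VCD_Vehicle 35 and without VCD_High_PBDE_E2 45. Cd209a and mt-Nd3 both had an edgeR adjusted p of 0.0640 without VCD_Low_E2_P4.

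Most of the interferon-induced list lay above 0. Of 36 tested genes 2 passed, Ifi27l2a and Bst2, 35 had a fold change above 0 and the median log2 fold change was 0.64, beside a median of -0.005 and 49.3% above 0 over all genes tested. The list summed to 7820, 5614 and 6121 CPM without hormone, to 11494, 13902 and 9214 CPM with E2 and to 10295, 9340 and 11323 CPM with E2_P4. The sums did not overlap between groups. Among members that did not pass, the interferon regulator Irf7 was at 73.4 to 123 CPM without hormone and 173 to 457 CPM with it (edgeR adjusted p = 0.392), and Xaf1 was at 22.5 to 32.2 against 43.5 to 82.9 CPM (edgeR adjusted p = 0.0690). The list was not carried by a few cells in every library: the median cell held 7089, 4148 and 3375 CPM of the list without hormone and 6957 to 11753 CPM with it. On that scale VCD_Vehicle (7089) and VCD_E2_P4 (6957) overlapped. The 6 monocyte markers summed to 433 to 902 CPM without hormone and 609 to 1069 CPM with it, and their part in the list's difference was not tested.

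**Figure D4:**
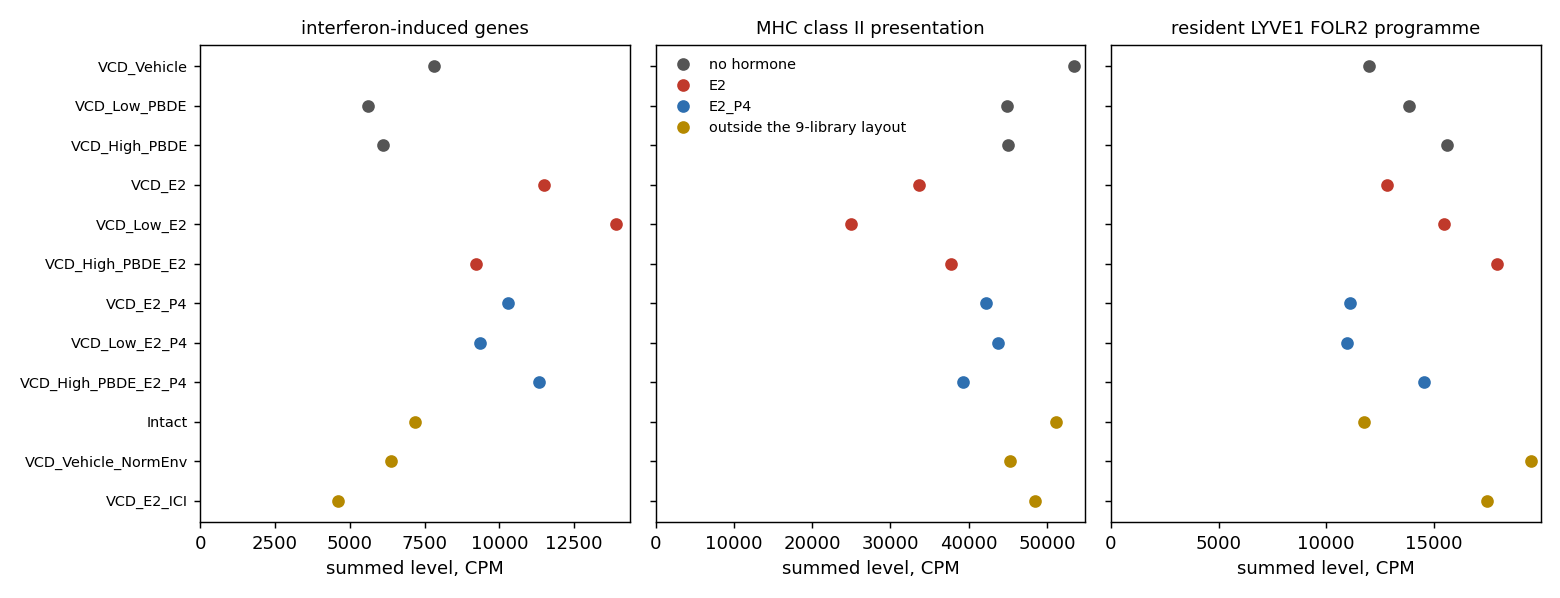
Summed CPM of 3 gene lists in the macrophages, 1 point a library, on axes that start at 0. The interferon-induced list runs from 5614 to 7820 without hormone and from 9214 to 13902 with E2 or E2_P4, MHC class II is lowest in the 3 E2 libraries, and the resident list overlaps between hormone groups.

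The fibroblasts of the same libraries gave a comparison for these genes. The 9 libraries each held 1444 to 4698 fibroblasts, 174 to 709 other immune cells and 47 to 144 macrophages. The other immune cells were mixed, with B and plasma cell markers at 229 to 10164 CPM. Counts of genes that passed are therefore not comparable between the classes. In the fibroblasts 2861 of 14697 genes passed the same contrast. In the other immune cells 0 of 11108 did, with 460 at an unadjusted p under 0.05 in edgeR. The log2 fold changes there had the same sign as in macrophages for Ifi27l2a (0.86 ± 0.166, edgeR adjusted p = 0.827), Bst2 (0.72 ± 0.136, adjusted p = 0.827) and Lgals3bp (0.72 ± 0.192, adjusted p = 1.00). They were 0.17 for Ifi30 and 0.08 for H2-T22, and the difference between these cells and macrophages was not tested. Ifi27l2a was higher in fibroblasts too, by 1.29 on the log2 scale (edgeR adjusted p = 0.0039), as were Bst2 (1.28, adjusted p = 0.0086), Lgals3bp (1.13, adjusted p = 0.0023) and H2-T22 (0.61, adjusted p = 0.0023). Hspa1b (-0.78, edgeR adjusted p = 0.0107) and mt-Nd3 (-0.73, edgeR adjusted p = 0.0120) were lower there too, and Lyz1 did not pass (-0.85, edgeR adjusted p = 0.340). Ifi27l2a stood higher in macrophages than in fibroblasts in all 9 libraries, at 1704 against 969 CPM in VCD_Vehicle and 3431 against 1854 CPM in VCD_Low_E2. Ifi30 had a log2 fold change of -0.76 in fibroblasts (edgeR adjusted p = 0.0675) against 0.85 in macrophages.

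The difference between macrophages and fibroblasts in the response to hormone (E2 and E2_P4 libraries pooled against no hormone) was tested directly, with library as a block. It passed for 43 of 8118 genes (0.53%), 14 with a higher and 29 with a lower response in macrophages. For MHC class II, 3 of 8 tested genes passed, all with a lower response in macrophages, and the median difference was -0.73. H2-Ab1 had a log2 difference of -0.72 (edgeR adjusted p = 0.0183), but its level in fibroblasts was 10.2 CPM against 5835 in macrophages. Lists of macrophage genes lay on the same side: 3 of 18 genes of the macrophage identity list passed, all lower (median -0.47), as did 2 of 16 of the resident list (-0.57). In fibroblasts Mpeg1, a macrophage pore protein gene at 1.99 CPM there, rose by 1.57 on the log2 scale (edgeR adjusted p = 0.0053) and Csf1r, at 1.12 CPM, by 0.69 (edgeR adjusted p = 0.0288). The part of macrophage RNA in the fibroblast sums was not tested. Ifi30, whose fold changes lay on opposite sides of 0, had a difference of 1.65 (edgeR adjusted p = 0.0035). Genes well counted in both classes included Apoe (9093 and 414 CPM), with log2 fold changes of 0.17 in macrophages and -1.07 in fibroblasts and a difference of 1.24 (edgeR adjusted p = 0.000191). Tgfbi, a secreted matrix protein, had log2 fold changes of -0.45 and -1.68 in the same order, with a difference of 1.22 (edgeR adjusted p = 0.0028). The immediate early gene Atf3 had -0.12 and -0.86, a difference of 0.74 (edgeR adjusted p = 0.0198). Without VCD_Low_E2_P4 37 genes passed, 26 of them among the 43, and of the 3 MHC class II genes H2-Ab1 did. Without VCD_Vehicle the count of genes was 11, without VCD_Low_PBDE 12, without VCD_High_PBDE 18 and without VCD_High_PBDE_E2_P4 24.

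MHC class II itself was not called with hormone. Its list summed to 53444, 44947 and 45039 CPM without hormone, to 33580, 24927 and 37787 CPM with E2 and to 42185, 43698 and 39199 CPM with E2_P4. The 3 E2 libraries were the lowest of the 12 and did not overlap with the E2_P4 libraries, which in turn lay below the 3 without hormone. In the median cell of each library the list stood at 33896, 22896 and 34703 CPM with E2 and at 42219, 32099 and 37039 CPM with E2_P4, so on that scale VCD_Low_E2_P4 lay below 2 of the E2 libraries. Of 10 tested members 0 passed for E2 or E2_P4 against no hormone, 6 had an unadjusted p under 0.05, 1 was above 0 and the median was -0.36. H2-Ab1, at 6997 ± 1055 CPM (SD, n = 3) without hormone and 5355 ± 1145 (n = 6) with it, had a log2 fold change of -0.43 ± 0.113 (edgeR adjusted p = 0.189). For E2_P4 against E2 it was 0.53 ± 0.133 (edgeR adjusted p = 0.614), and 8 of 10 members were above 0 with a median of 0.47.

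Several other lists lay mostly on one side of 0 with E2 or E2_P4, nearly all without a member that passed. In the lysosome and cathepsin list 23 of 27 genes were above 0 (median 0.22), and its sum was 17287 to 19047 CPM without hormone and 19962 to 25243 CPM with it. Of the 17 chemokine genes 15 were above 0 (median 0.58), with Ccl8, which draws monocytes, at 530 to 886 CPM without hormone and 265 to 2448 CPM with it. In the complement list 13 of 17 were above 0 (median 0.47). Its factor B gene Cfb was at 26.0, 7.91 and 13.8 CPM without hormone and at 27.9 to 80.1 CPM with it (log2 fold change 1.67 ± 0.324, edgeR adjusted p = 0.0690). With 15, 7 and 6 UMIs without hormone it reached the count filter of 10 UMIs in 3 libraries through the hormone libraries, so no difference is read from it. In the cell cycle list 19 of 23 were above 0 (median 0.24), while its sum was highest of the 12 libraries in VCD_Vehicle, at 2748 CPM. Other lists lay mostly below 0: the immediate early and heat shock list had 2 of 22 above 0 (median -0.25) with Hspa1b called, the glucocorticoid and progesterone target genes 2 of 13 (-0.26) and the cholesterol list 3 of 14 (-0.46). In the macrophage identity list 0 of 20 passed and the median was 0.05, and in the resident list 0 of 17 passed with a median of -0.07.

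The receptors for the hormones were scarce. Over all 951 macrophages no UMI of the progesterone receptor Pgr or of the estrogen receptor Esr2 was counted, and 1 UMI of the membrane estrogen receptor Gper1. The estrogen receptor Esr1 gave 141 UMIs, at 6.89 CPM in VCD_High_PBDE to 21.5 CPM in VCD_Low_PBDE, against 56.5 CPM in fibroblasts. After thinning, an Esr1 UMI was found in 3.49% of macrophages, 10.0% of fibroblasts and 0.874% of other immune cells. The share in macrophages lay between those of the 2 other classes, and the part of fibroblast RNA in it was not tested. The glucocorticoid receptor Nr3c1 stood at 118 to 179 CPM and the dioxin receptor Ahr at 15.4 to 64.2 CPM. Ahr was at 64.2, 40.7 and 57.4 CPM without hormone and at 20.0 to 32.3 CPM with E2 or E2_P4, a log2 fold change of -0.98 ± 0.210 (edgeR adjusted p = 0.0933). The further library without hormone, VCD_Vehicle_NormEnv, was at 15.4 CPM (7 UMIs), below all 6 hormone libraries.

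Between E2_P4 and E2, 4 genes passed (0.0484% of 8271, with 400 or 4.84% at an unadjusted p under 0.05): the hemoglobin genes Hba-a1 and Hba-a2 lower and the cytotoxic genes Nkg7 and Gzma higher with E2_P4. Hemoglobin mRNA was held almost wholly by 1 cell in each E2 library: 2933 of 2997 UMIs in VCD_E2, 2955 of 3019 in VCD_Low_E2 and 1220 of 1241 in VCD_High_PBDE_E2. In VCD_E2_P4 1 cell held 118 of 130 Gzma UMIs. Without cells with 10 or more UMIs of hemoglobin or of Gzma, an alternative added after these values were seen, 0 genes passed, and the log2 fold change of Hba-a2 for E2 or E2_P4 against no hormone fell from 5.08 to 1.91 (edgeR adjusted p = 0.487). Without VCD_E2 10 genes passed and without VCD_High_PBDE_E2 9 did. Without VCD_Low_E2_P4 3 passed, and 2 of these, Hba-a1 and Hba-a2, were among the 4. Nkg7 and Gzma had reached the count filter through the E2_P4 libraries, so their calls are not read as a difference. The calls of Hba-a1 and Hba-a2 rest on 1 cell in each E2 library and are not read as a difference either. Hba-a1 had an edgeR adjusted p of 0.114 without VCD_High_PBDE and of 0.127 without VCD_High_PBDE_E2_P4. All 17 tested genes of the resident list had a fold change below 0 with E2_P4 (median -0.27, beside 0.0019 and 50.3% above 0 over all genes), and none passed. VCD_Low_E2_P4, which stood apart in depth and fibroblast markers, had the lowest resident sum of the 12 libraries, 10984 CPM, and a median cell at 6673 CPM against 12068 or more elsewhere, and its part in this was not tested.

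With low PBDE no gene passed. Of 8271 genes 0 were called in edgeR (0%), 269 (3.25%) had an unadjusted p under 0.05 and DESeq2 called 2. Without VCD_Low_E2, however, 49 genes passed and without VCD_E2 12 did. Of the resident list 16 of 17 were above 0, at a median of 0.13, and of the xenobiotic and oxidative stress list 12 of 18, at 0.11, and none passed.

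High PBDE was accompanied by 15 called genes, 8 higher and 7 lower (0.181% of 8271), with 709 (8.57%) at an unadjusted p under 0.05. The largest increase among the named genes was Tsc22d3, the glucocorticoid-induced leucine zipper. It was at 196, 153 and 113 CPM without PBDE (no hormone, E2, E2_P4), at 323, 216 and 129 CPM with low and at 436, 519 and 238 CPM with high PBDE. The high libraries lay above those without PBDE and overlapped those with low PBDE, with a log2 fold change of 1.35 ± 0.177 (edgeR adjusted p = 0.0072).

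Glul, glutamine synthetase, was at 270, 252 and 224 CPM without PBDE and at 492, 552 and 393 CPM with high PBDE (log2 fold change 0.93, edgeR adjusted p = 0.0212). Phlda1, an early response gene, was at 135 to 193 CPM without and 330 to 356 CPM with high PBDE (1.02, edgeR adjusted p = 0.0212). Both sets of groups were apart, and so were those of Plk2, a stress-responsive kinase, at 39.9 to 83.6 against 113 to 141 CPM (1.06, edgeR adjusted p = 0.0413). These genes were named because they passed with the same sign at each hormone level. Gaps between groups, here and in the lower genes below, partly follow from that choice. Ltc4s, which makes the lipid mediator leukotriene C4, was at 158 to 193 against 266 to 357 CPM (0.85, edgeR adjusted p = 0.0280). The phosphatase gene Dusp1 was at 842 to 1204 against 1463 to 1739 CPM (0.69, edgeR adjusted p = 0.0413). Hspa1b was at 699 to 1068 CPM without and 1246 to 2644 CPM with high PBDE (0.88, edgeR adjusted p = 0.0212), the reverse of its direction with hormone. Without cells with at least 5 collagen UMIs, and then without VCD_Vehicle, which kept too few cells, the log2 fold changes were -0.035 for Hspa1b, 0.0077 for Plk2, 0.27 for Ltc4s and 0.44 for Dusp1, and none of these passed.

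Among the lower genes, the noncoding AY036118 was at 108, 178 and 186 CPM without PBDE, at 52.0, 124 and 76.6 CPM with low PBDE and at 16.1, 13.6 and 10.9 CPM with high PBDE (log2 fold change -3.65, edgeR adjusted p = 5.46e-06). Lars2, the mitochondrial leucyl-tRNA synthetase gene, was at 123 to 167 CPM without and 54.6 to 71.2 CPM with high PBDE (-1.16, edgeR adjusted p = 0.0212). Both were also low in the fibroblasts of these libraries, by -2.87 and -1.57 on the log2 scale (edgeR adjusted p = 0.0289 and 0.0435). In the other immune cells the values were -3.56 and -1.86 (edgeR adjusted p = 0.0692 and 0.316). These 2 differences were thus not particular to macrophages, and the part of a difference between whole libraries in them was not tested. The other named lower genes were Tppp3, a tubulin-binding protein gene (-1.23), Cd52, a leukocyte surface peptide gene (-0.74), and S100a10, a partner of annexin A2 (-0.68), each without overlap between high PBDE and no PBDE. Without cells with at least 5 collagen UMIs and without VCD_Vehicle the values were 0.020 for Cd52, -0.33 for Lars2, -0.54 for Tppp3 and -0.44 for S100a10, none of which passed, and S100a10 had an edgeR adjusted p of 0.0544 without VCD_Low_E2_P4.

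A library without PBDE showed similar levels for most of these genes. VCD_Vehicle_NormEnv, which carries the same name suffix as the high PBDE libraries, had Tsc22d3 at 290 CPM, Glul at 482, Phlda1 at 336, Plk2 at 128, Hspa1b at 2412, Lars2 at 61.6 and Tppp3 at 39.6. AY036118, at 68.2 CPM there, stayed above the high PBDE libraries. With VCD_Vehicle_NormEnv added to the libraries without PBDE 3 genes passed, with AY036118 and Tsc22d3 (log2 fold change 1.23, edgeR adjusted p = 0.0370) the only named genes among them. With the suffix as a term 2 passed, and among the named genes only AY036118 did. All 3 libraries without PBDE in the layout carry the first suffix and all 3 with high PBDE the second, so within a suffix the contrast cannot be formed from them. Without VCD_E2 1 gene passed, without VCD_Vehicle 3, without VCD_High_PBDE_E2 5, without VCD_High_PBDE_E2_P4 7, without VCD_E2_P4 8 and without VCD_High_PBDE 9.

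**Figure D5:**
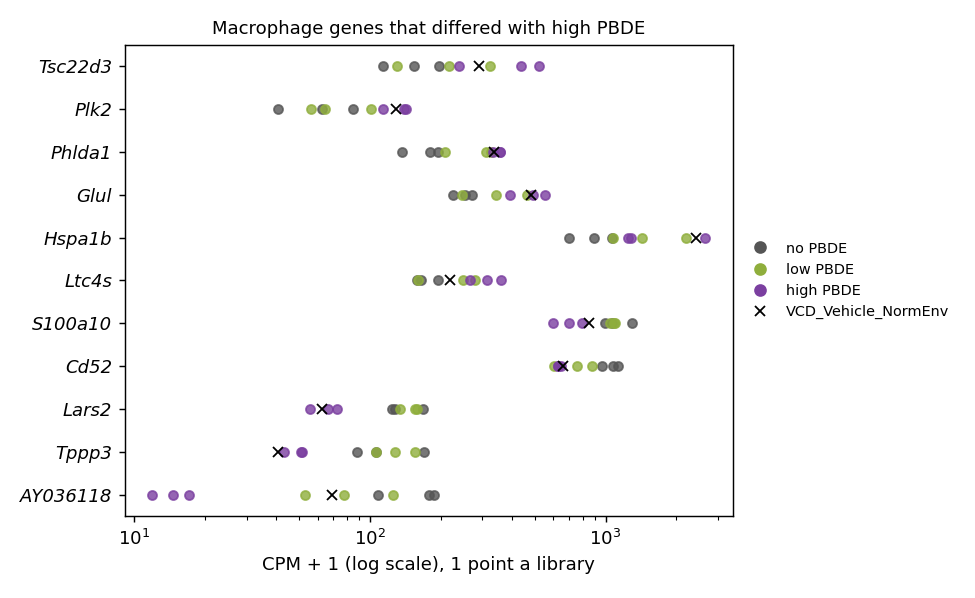
CPM + 1 (log axis) of macrophage genes that passed the test for high PBDE against none, 1 point a library, coloured by PBDE level, with VCD_Vehicle_NormEnv as a cross. The high PBDE points lie apart from those without PBDE, and for most genes the cross lies among or near the high PBDE points. Agreement of the hormone levels in sign was a condition for naming a gene, so the gap partly follows from the choice.

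The lists were read in the same libraries. All 17 resident genes tested were above 0, with a median of 0.42, 13 with an unadjusted p under 0.05 and 0 that passed. The resident sum was 11133 to 12850 CPM without PBDE, 15611, 17969 and 14567 CPM with high PBDE and 19541 CPM in VCD_Vehicle_NormEnv, the highest of the 12 libraries. The part of the monocyte markers in the resident difference was not tested. In the immediate early and heat shock list 2 of 22 rose (Hspa1b and Dusp1), 21 were above 0 and the median was 0.30, beside 0.181% called, 50.1% above 0 and a median of 0.00073 over all 8271 genes. Its sum was 33992 CPM in VCD_High_PBDE, 32971 in VCD_Vehicle_NormEnv and 21452 in VCD_Vehicle. Of 13 glucocorticoid and progesterone target genes 2 rose, Tsc22d3 and again Dusp1, with 10 above 0 and a median of 0.48, beside the same background, and of 14 cholesterol genes 12 were not above 0 (median -0.74) with none that passed. The xenobiotic and oxidative stress list had 11 of 18 above 0 and a median of 0.08. Cyp1b1, a dioxin receptor target, gave 11 UMIs in all macrophages, so no change of it was detectable at this depth.

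3 further comparisons set 1 library against another, and nothing replicates them. Genes were counted when the log2 ratio of CPM + 1 reached 1 in size and the 95% Poisson intervals, which cover counting error only, did not overlap. Against VCD_Vehicle, Intact had 120 of 3104 genes past this limit (3.87%), 70 higher and 50 lower. The cell cycle list had 6 of 9 past it, all lower in Intact, but in VCD_Vehicle 1 cell held all 48 Cenpf UMIs and 41 of 44 Mki67 UMIs. Of the ductal list 4 of 6 were past it and higher in Intact, with Cd9 at a log2 ratio of 1.75. The interferon list had 0 of 19 past it, with a median of -0.22, and the resident list 0 of 17, with a median of 0.02.

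VCD_E2_ICI against VCD_E2 had 219 of 3137 genes past the limit (6.98%), 65 higher and 154 lower. Interferon-induced genes made up 19 of the lower ones, of 28 listed genes that could be counted, and the median of the list was -1.42 beside -0.03 over all genes. Ifi27l2a was at 646 CPM with ICI and 2877 without it, Bst2 at 160 and 597, and Irf7 at 46.7 and 340. The summed list, at 4600 CPM, was the lowest of the 12 libraries. Monocyte markers moved with it: their sum was 344 CPM with ICI, the lowest of the 12 libraries, and 1069 CPM in VCD_E2, the highest. Among them, Ly6c2 was at 0 UMIs with ICI against 182 in VCD_E2, Chil3 at 0 against 179, Plac8 at 11.1 against 223 CPM and Ccr2 at 320 against 567 CPM. Their part in the interferon difference was not tested. MHC class II summed to 48511 CPM with ICI against 33580 CPM, though 0 of 8 members were past the limit (median 0.25). The largest single ratios rested on few cells, with all 48 Gzma UMIs of VCD_E2_ICI in 1 cell and 165 of 179 Chil3 UMIs of VCD_E2 in another. VCD_E2_ICI and VCD_E2 carry different name suffixes, and their part in the difference was not tested.

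VCD_Vehicle_NormEnv against VCD_Vehicle, both without hormone or PBDE, had 185 of 3088 genes past the limit (5.99%), 74 higher and 111 lower. The immediate early and heat shock list had 7 of 22 past it, all higher, among them Egr1 at a log2 ratio of 1.57 and Fos at 1.16. The resident list had 3 of 17 past it, all higher: the ficolin gene Fcna (1.98), the chemokine gene Ccl24 (1.48) and Igf1 (1.13). Interferon-induced genes had 3 of 18 past it, all lower, with Irf7 at -1.04. Rnase2a, a secreted ribonuclease gene, was at 220 CPM against 1.73, in 9 cells of which 1 held 40 of 100 UMIs. The share of genes past the limit between these 2 vehicle libraries was thus larger than that between Intact and VCD_Vehicle. However, these 2 vehicle libraries carry different name suffixes, whereas Intact and VCD_Vehicle share 1. The part of the suffix in the larger share was not tested.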

How the data were processed

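Droplet-based 3′ single-cell RNA sequencing (Chromium v3) of 12 mammary gland libraries was used. Per the labels, the authors ran Cell Ranger 3.1.0 with the mm10 genome, and the deposited values are raw UMI counts of each gene in each barcode. The labels name a HiSeq and the methods of the study a NovaSeq instrument. Groups came from the labels. No doublet caller was run: cells with a UMI of an excluded gene were left out, and doublets without such a UMI can remain (558 of 951 macrophages held at least 5 collagen UMIs).

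Counts of the macrophages were summed per library, since cells are not replicates, and the p-values measure only the spread between these libraries. Genes with at least 10 UMIs in at least 3 of 9 libraries were fitted with edgeR 4.0.16 in R 4.3.3 (TMM normalization, robust quasi-likelihood test, 4 residual degrees of freedom). The SE of an edgeR log2 fold change was derived from the test, as its absolute value divided by the square root of the F statistic. DESeq2 1.42.0 was an alternative. The code was tested on simulated data. C1q and the excluded genes were fitted but not reported as tests. Log2 ratios of lists and single libraries used CPM + 1, and intervals are 95% (exact binomial, exact Poisson). Fibroblasts had a Pdgfra UMI, fewer than 5 C1q UMIs and none of Ptprc, Epcam or Pecam1. Other immune cells had a Ptprc UMI, fewer than 5 C1q UMIs and none of Pdgfra or Epcam.

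The cells and gene lists were chosen with earlier results of these data known. Genes were named when they passed, had at least 50 CPM on average and the same sign at each level of the other factor (the 12 largest and smallest for E2 or E2_P4, the 6 largest and smallest for other contrasts), or as members of a list that passed, or as listed receptors. In comparisons of single libraries the 5 largest and smallest ratios qualified. List members that did not pass, and Ahr, Ccl8, Cfb, Irf7 and Xaf1, were chosen after their values were seen. Clec4n, Hist1h2ap, Fbxl18, Cd209b and Ltb4r1 passed below 50 CPM and are not described. Selenop is Sepp1 in the files, and Cebpd, Ighm, Trac and Trbc2 were not used here. Some genes that met these rules are not reported here. Positions are from GENCODE M21 (GRCm38) and promoters from RefSeq (GRCm38.p6).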

Additional observations from a re-analysis of the deposited data

Results flagged for a closer look

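The response to hormone (E2 and E2_P4 pooled against no hormone) differed between macrophages and fibroblasts, by the test of the difference itself (edgeR, 8118 genes), for the listed genes given here other than C2 and Cfb, which are set apart below. Values are log2 differences, macrophages minus fibroblasts.

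Of antigen presentation and surface genes, H2-Ab1 differed by -0.72, H2-Eb1 by -0.74, H2-DMa by -0.81 and the lectin gene Clec10a by -1.17. These genes were at 10.2, 10.0, 1.93 and 0.426 CPM in fibroblasts. Of macrophage genes, Mpeg1 differed by -1.52, Csf1r by -0.80 and Fxyd2 by -0.80, and fibroblasts held 1.99, 1.12 and 3.18 CPM of them. For H2-Ab1, H2-Eb1, H2-DMa and Clec10a the log2 fold changes were -0.43, -0.41, -0.35 and 0.07 in macrophages. In fibroblasts they were 0.29, 0.33, 0.45 and 1.23. For Mpeg1, Csf1r and Fxyd2 they were 0.04, -0.10 and -0.27 in macrophages and 1.57, 0.69 and 0.51 in fibroblasts. The part of macrophage RNA in these fibroblast sums was not tested.

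The complement genes Cfb and C2 had fitted values of 1.48 and 4.51. Both reached the count filter of 10 UMIs in 3 libraries through the hormone libraries, with 15, 7 and 6 UMIs of Cfb and 0, 1 and 0 of C2 in macrophages of the 3 libraries without hormone, so neither the values nor the calls are read as a difference.

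Of genes counted in both classes, Apoe differed by 1.24, Tgfbi by 1.22, Cdkn1a by 0.75, Atf3 by 0.74 and Zfp36 by 0.60, and in each the log2 fold change was below 0 in fibroblasts and higher in macrophages. Isg15 differed by -0.94, with log2 fold changes of 0.46 in macrophages and 1.30 in fibroblasts, neither of which passed its own test.

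Most of these calls rest on single libraries. Of 9 fits that each left out 1 library, Apoe and Mpeg1 passed in all 9, Tgfbi in 8, H2-Ab1 in 6, Atf3 in 5, H2-Eb1 in 4, Zfp36 and Isg15 in 3, Clec10a and Fxyd2 in 2, and H2-DMa, Cdkn1a and Csf1r in 1. Without VCD_Low_E2_P4, H2-Eb1, H2-DMa, Clec10a, Zfp36, Isg15 and Csf1r did not pass, with edgeR adjusted p from 0.0640 to 0.147.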

How the results depend on the processing

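For E2 or E2_P4 against no hormone 13 genes passed. The count was 40 with DESeq2, 245 without a filter on low counts, 22 with at least 50 UMIs in 3 libraries, 23 with a mitochondrial limit of 10%, 36 without cells with at least 5 collagen UMIs, 7 without cells with dendritic cell UMIs, 4 with equal numbers of cells, 0 with the name suffix as a term and 29 with VCD_Vehicle_NormEnv added. For E2_P4 against E2 the 4 genes became 7, 119, 2 and 9 under DESeq2, no filter, the stricter filter and no collagen cells, 2 with equal numbers, and 0 without dendritic cell UMIs, without the 5% largest cells or without hemoglobin and Gzma cells. For low PBDE, 0 became 2 with DESeq2, 114 without a filter and 5 without collagen cells. For high PBDE, 15 became 27 with DESeq2, 142 without a filter, 23 with the stricter filter, 8 without collagen cells, 3 without dendritic cell UMIs, 9 without the largest cells, 3 with equal numbers, 2 with the suffix and 3 with VCD_Vehicle_NormEnv. The difference to fibroblasts had 19 genes in place of 43 without collagen cells. That setting removed 558 of 951 cells and with them VCD_Vehicle, which lost 31 of its 48 cells, so both changed together, and leaving out VCD_Vehicle alone gave 11. The cause of these moves was not tested.

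Leaving out 1 library at a time gave 0 to 45, 3 to 10, 0 to 49, 1 to 22 and 11 to 62 genes in the same order, and odds ratios of the share of 1.71 to 2.37 (hormone), 0.938 to 1.38 (E2_P4 against E2), 0.716 to 1.00 (low PBDE) and 1.10 to 1.49 (high PBDE). The share with hormone had an odds ratio of 1.39 among Ptprc cells. The odds ratio turned to 0.938 for E2_P4 against E2 without VCD_High_PBDE_E2 or VCD_High_PBDE_E2_P4 and to 1.00 for low PBDE without VCD_E2_P4 or VCD_Low_E2_P4. Lyz1 turned to 0.41 without the largest cells, and Cd52 to 0.020 and Hspa1b to -0.035 for high PBDE without collagen cells. Of the values of named genes, 472 kept direction and call, 289 kept direction only and 3 reversed. No paired analysis was possible because each group has 1 library, so that no replicate numbers pair libraries, although the comparison with fibroblasts used library as a block. With 36 to 144 macrophages a library, rare genes such as the receptors are limited by depth.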
